A study of Rattus norvegicus with 7 samples.

Results

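The miR-181 family consists of mature microRNAs (miRNAs) that carry the same seed, the stretch of bases near the 5′ end through which a miRNA pairs with its target mRNAs. Its 4 mature strands on the rat array, rno-miR-181a, rno-miR-181b, rno-miR-181c and rno-miR-181d, were selected by name from the 677 rat miRNAs of the scanner output, leaving out the passenger (star) strands, by a rule that uses no measured value. The islets came from male Wistar rats aged 12 months (4 rats, replicates 2, 4, 10 and 16) or 3 months (3 rats, replicates 9, 11 and 13). No treatment or genetic change is given for either age, and strain, sex and tissue were shared by all 7 rats. Islets were freed by collagenase digestion, total RNA was labelled with the dye Cy3, and each rat's RNA was hybridised to 1 single-colour Agilent miRNA array. An islet preparation is a mixture of endocrine, vascular and stromal cells with some exocrine tissue, and the labels do not give its composition. The comparison of both ages addressed how the islet miRNA profile differs in older rats.

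A miRNA is cut from a hairpin precursor, and 1 strand of the hairpin is loaded into the Argonaute complex, where it represses mRNAs that match its seed. The other strand, the passenger, is mostly degraded. Members with 1 seed are predicted to share most targets, but they are made from different hairpins, which are transcribed in pairs from separate places in the genome. The family is best known from lymphocytes, where miR-181a tunes antigen receptor signalling, and it is also present in brain, muscle and endocrine tissue.

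The sequences are shown because the members differ by few bases, so that probes for one member could also bind another, and because their genomic pairs group the results. All 4 members were matched by name to the 5′ strand in the RefSeq miRNA table (build GRCr8). Each is written 5′ to 3′, and capitals mark the seed (bases 2 to 8).
miR-181a: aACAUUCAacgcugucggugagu
miR-181b: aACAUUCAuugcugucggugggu
miR-181c: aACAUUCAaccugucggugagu
miR-181d: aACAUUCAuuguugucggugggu
The seed ACAUUCA was carried by these 4 names and by no other of the 693 mature names in that table. Counted from 1 at the 5′ end, miR-181d differed from miR-181b by the single substitution C12U. miR-181c, with 22 bases against 23 in the other members, was miR-181a without the base at position 11. miR-181b differed from miR-181a by A9U, C10U and A21G. The closest pairs by sequence were therefore a with c and b with d.

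The genomic pairs were different. miR-181a and miR-181b lay together on chromosome 13 (Mir181a-1, chr13:52037081-52037103, plus strand; Mir181b1, chr13:52037263-52037285, plus strand), with 182 bases between their mature starts, inside the non-coding gene LOC108352541. The annotated gene Mir3570 also covered the mature bases of Mir181a-1. A further copy of miR-181a, Mir181a2, lay on chromosome 3 (chr3:43025601-43025623, plus strand) within the spans of Nr6a1, which encodes a nuclear receptor, and LOC120101539. miR-181c and miR-181d lay on chromosome 19 (chr19:40888314-40888335 and chr19:40888484-40888506, plus strand), 170 bases apart, and no other annotated gene covered them. The array measures mature RNA, and so cannot tell which miR-181a hairpin its signal came from. It also lists a passenger strand named miR-181b-2*, but the RefSeq annotation used here gave only Mir181b1 for miR-181b.

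All 4 members were detected on all 7 arrays, each by 2 probe sequences with 10 spots per probe. The total gene signal, the background-subtracted sum that the scanner software gives for a miRNA, was used in linear units and, after quantile normalisation over the 677 miRNAs, on the log2 scale. Signals of different miRNAs depend on their probes and were not ranked against each other. Before normalisation, the arrays of older rats were brighter. The upper quartile of the total gene signal was 67.0 to 73.8 units on the arrays of older rats and 37.4 to 55.4 units on those of younger rats, with no overlap, and the 272 miRNAs tested had a median log2 difference of 0.79 (12 minus 3 months), which normalisation brought to 0.06. Statements on normalised values are relative to that general shift.

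miR-181a and miR-181b were lower in the older rats after normalisation, while miR-181c and miR-181d lay at about the same level in both ages. None of the 4 members passed an adjusted p of 0.05 over the 272 miRNAs tested (limma's moderated test with Benjamini-Hochberg adjustment), against 4 of 272, or 1.47%, of all miRNAs. At an unadjusted limma p of 0.05, 2 of 4 members were lower and 0 were higher, where 34 of 272 (12.5%) were lower. The unmoderated test that the study's methods name gave the same counts for the family. The median log2 difference was -0.57 over the 4 members and 0.06 over all miRNAs tested. In bulk tissue, fewer cells that hold a miRNA and less of it per cell cannot be told apart.

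miR-181a, the member best studied in lymphocytes and, in this study, the one followed up in beta cells, had a total gene signal of 83.8, 100.2, 142.0 and 86.8 units in 12-month-old replicates 2, 4, 10 and 16. In 3-month-old replicates 9, 11 and 13 it was 107.9, 138.1 and 145.6 units. These unnormalised signals overlapped, because replicate 10 was above 2 of the younger rats. After normalisation the values were 6.16, 6.21, 6.91 and 6.17 at 12 months and 7.30, 7.27 and 7.87 at 3 months on the log2 scale. All 4 older rats then lay below all 3 younger ones, and replicates 2, 4 and 16 lay close together. An absence of overlap with lower values at 12 months was seen for 26 of 272 miRNAs (9.56%), and miR-181a was the only family member among them. The older rats averaged 6.36 ± 0.36 (SD, n = 4) and the younger rats 7.48 ± 0.34 (SD, n = 3). Their log2 difference was -1.12 (standard error 0.25, 95% interval -1.68 to -0.55), or 2.17-fold lower at 12 months. Its limma p of 0.00186 was the 5th smallest of 272, with an adjusted p of 0.0608. The exact two-sided permutation p over the 35 splits of the rats was 0.0571, where 4 rats against 3 cannot go below 0.0286. Without replicate 10 the log2 difference was -1.31 with a limma adjusted p of 0.0199. With any other rat left out, the limma adjusted p was 0.0882 to 0.198. Over all the alternatives tried, the adjusted p ranged from 0.00251 to 0.263.

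miR-181b, whose annotated hairpin Mir181b1 lies beside Mir181a-1, gave a weak signal. Its signal was 11.5, 21.9, 27.9 and 15.04 units in 12-month-old replicates 2, 4, 10 and 16, and 20.4, 28.1 and 37.1 units in 3-month-old replicates 9, 11 and 13. The software's own error was 11.9% to 30.3% of these signals, against 8.38% to 9.01% for miR-181a. Normalised log2 values were 3.30, 4.06, 4.69 and 3.55 at 12 months and 4.69, 4.82 and 5.83 at 3 months. Replicate 10 tied with 3-month-old replicate 9, and the other 3 older rats were below every younger rat. The older rats averaged 3.90 ± 0.62 (SD, n = 4) and the younger rats 5.11 ± 0.62 (SD, n = 3). The log2 difference of -1.22 (standard error 0.39, 95% interval -2.12 to -0.31) was close to that of miR-181a under this processing, with a wider spread between rats. It was smaller than that of miR-181a with the normexp background correction (-0.40 against -0.79) and in the deposited matrix (-0.83 against -1.05), and stood at -0.62 with no normalisation (-0.36 for miR-181a). The limma p was 0.0146 and the adjusted p 0.104, and the exact two-sided permutation p was 0.0857. Without 3-month-old replicate 13, the highest value, the log2 difference was -0.84 and the unadjusted limma p 0.0570.

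miR-181c had a signal of 106.9, 106.6, 99.9 and 78.2 units in 12-month-old replicates 2, 4, 10 and 16, and 45.1, 77.8 and 50.4 units in 3-month-old replicates 9, 11 and 13. All older rats were above all younger rats before normalisation, but only narrowly for replicate 16 against replicate 11. The unnormalised log2 difference of 0.79 was the same as the median of all miRNAs tested. After normalisation the values were 6.45, 6.29, 6.35 and 6.06 at 12 months and 5.87, 6.38 and 6.38 at 3 months. Both ages overlapped, with means of 6.29 ± 0.17 (SD, n = 4) and 6.21 ± 0.29 (SD, n = 3). The log2 difference was 0.08 (standard error 0.18, limma adjusted p = 0.899), with a 95% interval from -0.34 to 0.51.

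miR-181d, encoded beside miR-181c, had a signal of 24.6, 30.9, 33.03 and 24.2 units in 12-month-old replicates 2, 4, 10 and 16. In 3-month-old replicates 9, 11 and 13 it was 14.3, 27.0 and 17.3 units. Replicate 11 was the brightest of the younger rats for both miR-181c and miR-181d. Normalised log2 values were 4.38, 4.63, 4.86 and 4.23 at 12 months and 4.22, 4.78 and 4.66 at 3 months, and the ages overlapped. The log2 difference was -0.02 (standard error 0.21, limma adjusted p = 0.953), with a 95% interval from -0.51 to 0.46. The intervals of miR-181c and miR-181d leave room for a change of about the size of their bounds, and their signs changed with the processing.

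**Figure D1:**
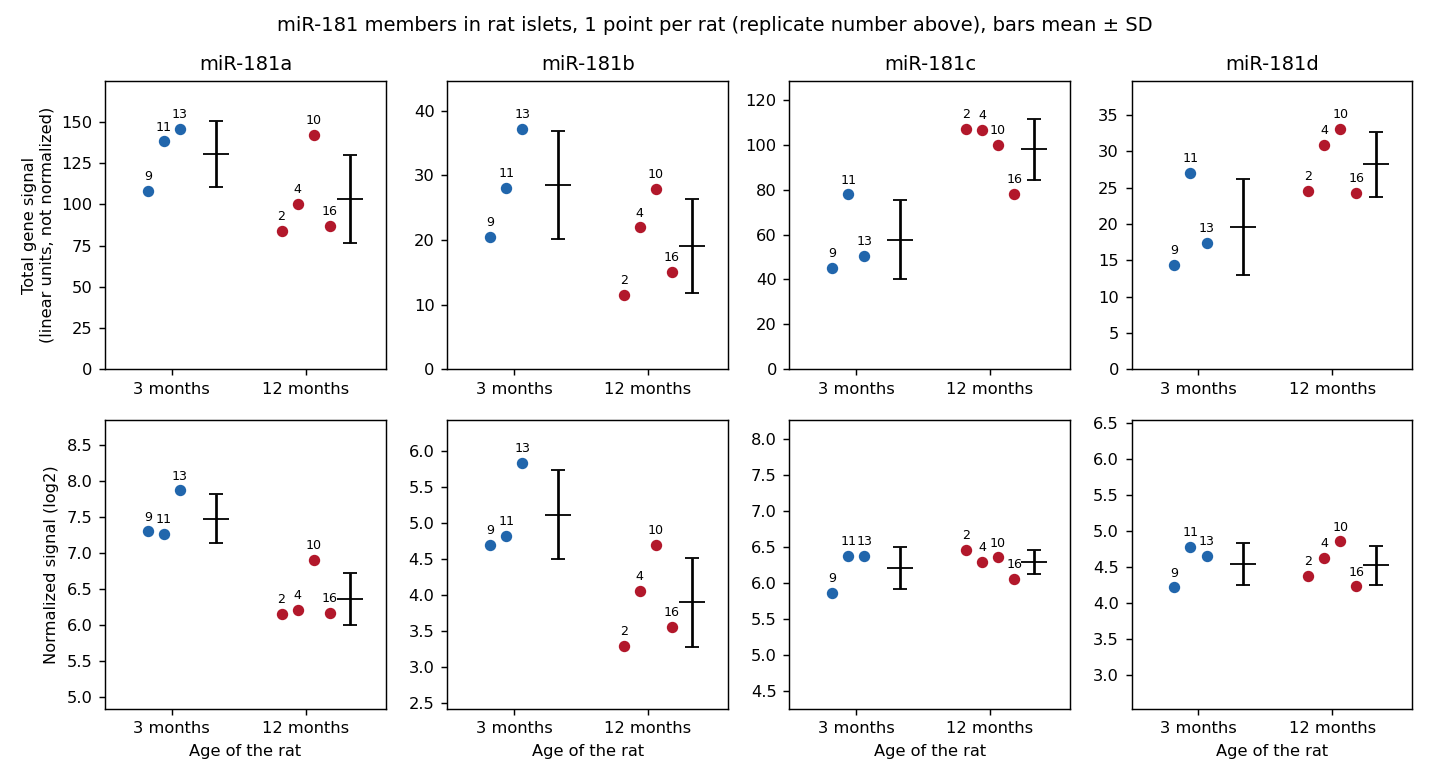
Signal of each miR-181 member by age. The upper panels give the total gene signal in linear units before normalisation and the lower panels the quantile-normalised log2 signal, with 1 point per rat (blue 3 months, n = 3; red 12 months, n = 4), replicate numbers above the points and bars for mean ± SD. Normalised miR-181a and miR-181b were lower at 12 months, with log2 differences of -1.12 and -1.22, and replicate 10 lay nearest to the younger rats, and miR-181c and miR-181d overlapped between the ages.

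Since any scale factor of an array cancels in the difference of 2 signals on that array, the members were also compared pairwise within each rat. The 6 differences were compared between ages with exact two-sided permutation tests and Benjamini-Hochberg adjustment over the 6 pairs. Such a difference also holds the affinities of both sets of probes, so only its shift with age is informative. Each member of the a/b pair was lower relative to each member of the c/d pair in the older rats, and within the pairs no shift was detected.

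Before normalisation, miR-181a minus miR-181c was -0.35, -0.09, 0.51 and 0.15 on the log2 scale in 12-month-old replicates 2, 4, 10 and 16. In 3-month-old replicates 9, 11 and 13 it was 1.26, 0.83 and 1.53. The difference was below every younger rat in every older rat, replicate 10 included. Its shift was -1.15, and -1.20 after quantile normalisation (exact permutation p = 0.0286 in both cases, the smallest that 4 rats against 3 allow). These miRNAs differ only by the missing base given above.

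miR-181b minus miR-181d, the pair that differs by 1 substitution, was -1.10, -0.50, -0.25 and -0.69 in the older rats and 0.51, 0.06 and 1.10 in the younger rats, in the same order. Every older rat lay below every younger rat. The shift was -1.19 before and after normalisation, with an exact permutation p of 0.0286 in both cases.

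miR-181a minus miR-181d shifted by -0.93 before and -1.09 after normalisation (exact permutation p = 0.0286 in both cases). miR-181b minus miR-181c shifted by -1.41 before normalisation (exact permutation p = 0.0286) and by -1.30 after it (exact permutation p = 0.0571), and did not overlap between the ages on either scale. Adjusted over the 6 pairs, these 4 differences had an exact permutation p of 0.0429 each before normalisation. After quantile normalisation, the setting used for the members, the adjusted values were 0.0571 for 3 of them and 0.0857 for miR-181b minus miR-181c, none of which passed 0.05. The 4 differences share members and are not independent of each other. The adjusted 0.0429 rests on all 4 standing together at the smallest p that 4 rats against 3 allow. How often pairs of other miRNAs separate the ages was not examined.

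Within the genomic pairs the differences overlapped between ages. After normalisation, miR-181a minus miR-181b averaged 2.46 ± 0.34 in the older rats (SD, n = 4) and 2.36 ± 0.29 in the younger rats (SD, n = 3), a shift of 0.10 (exact permutation p = 0.714). miR-181c minus miR-181d was 1.76 ± 0.24 (SD, n = 4) and 1.66 ± 0.06 (SD, n = 3), a shift of 0.11 (exact permutation p = 0.543). With each rat left out in turn, these shifts ranged from -0.07 to 0.21 and from 0.01 to 0.20. A p above the threshold does not show that the members of a pair moved alike. For miR-181a minus miR-181b the sign depended on the processing, with a shift of -0.39 after the normexp background correction (exact permutation p = 0.0286) and -0.22 in the deposited matrix.

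**Figure D2:**
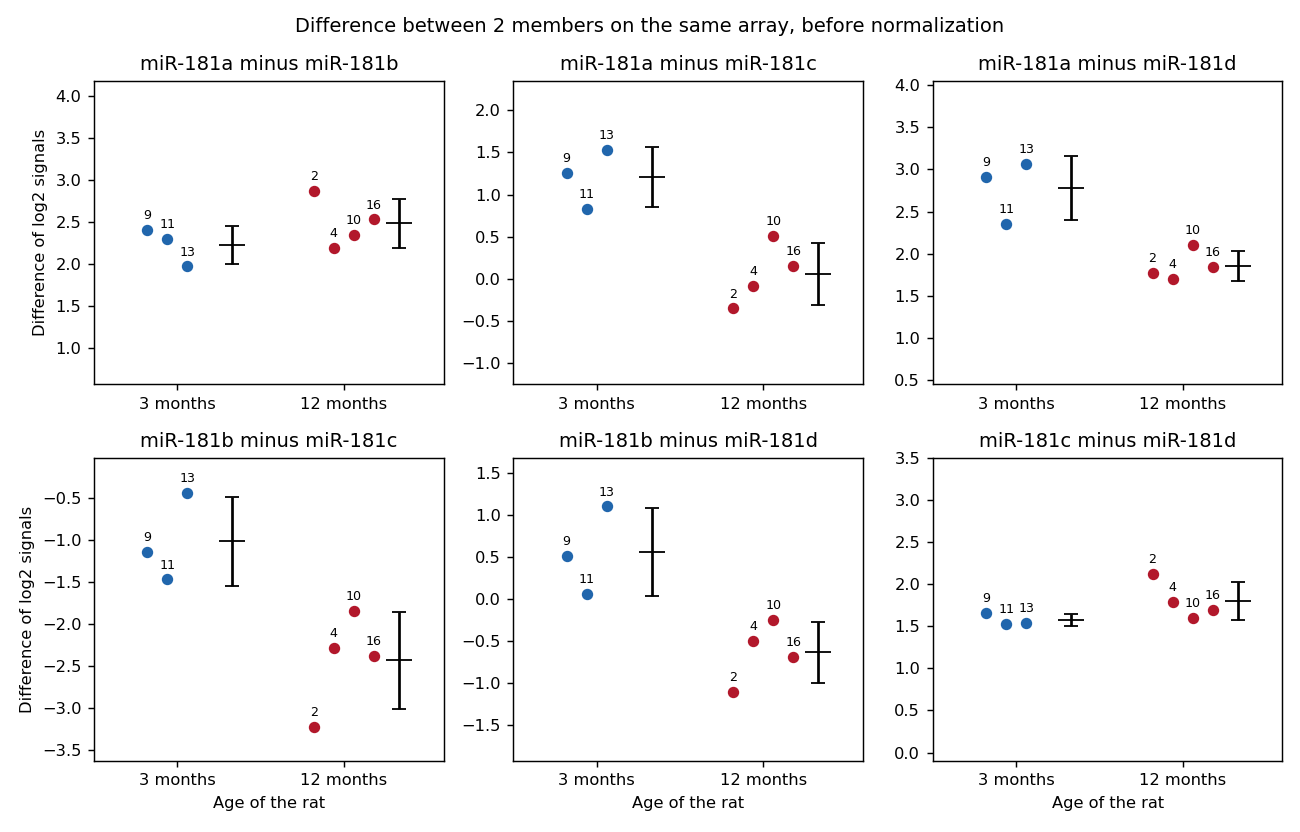
Difference between 2 miR-181 members on the same array before normalisation, on the log2 scale, for all 6 pairs. There is 1 point per rat (blue 3 months, n = 3; red 12 months, n = 4) with the replicate number above it, and bars give mean ± SD. In the 4 panels that set miR-181a or miR-181b against miR-181c or miR-181d the ages do not overlap, with shifts of -0.93 to -1.41, and in the other 2 panels they do.

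The arrays lay in 2 rows of 1 slide, and each row held both ages. In the row with replicates 2, 4 and 9, miR-181a differed by -1.12 and miR-181b by -1.02 on the log2 scale (12 minus 3 months). In the row with replicates 10, 16, 11 and 13 the differences were -1.03 and -1.20, so that both members were lower at 12 months in each row. miR-181c differed by 0.51 in the first row and -0.17 in the second, and miR-181d by 0.28 and -0.17, so their directions were not shared by the rows. The shifts of the 4 cross-pair differences were -1.30 to -1.62 in the first row and -0.86 to -1.03 in the second. The differences within a row are given as values and were not tested.

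Both probe sequences of miR-181a gave a lower value at 12 months, by -0.98 and -1.06 on the log2 scale, and neither overlapped between ages. Their limma adjusted p values were 0.115 and 0.141. Both probes make up the total signal of miR-181a, so their agreement is not separate support. The share of all probes without overlap is not given here. The probe sequences of miR-181b gave -1.20 and -1.26. The first exceeded 2 times its own error on 6 of 7 arrays. The second, with 65.1% to 69.4% of that member's total signal, overlapped between ages. The probes of miR-181c gave 0.15 and 0.09. Those of miR-181d disagreed in sign, with 0.25 and -0.16, and the first of these carried only 16.6% to 25.8% of that member's total signal and exceeded 2 times its own error on 5 of 7 arrays. Binding of one member to the probes of another was not tested.

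**Figure D3:**
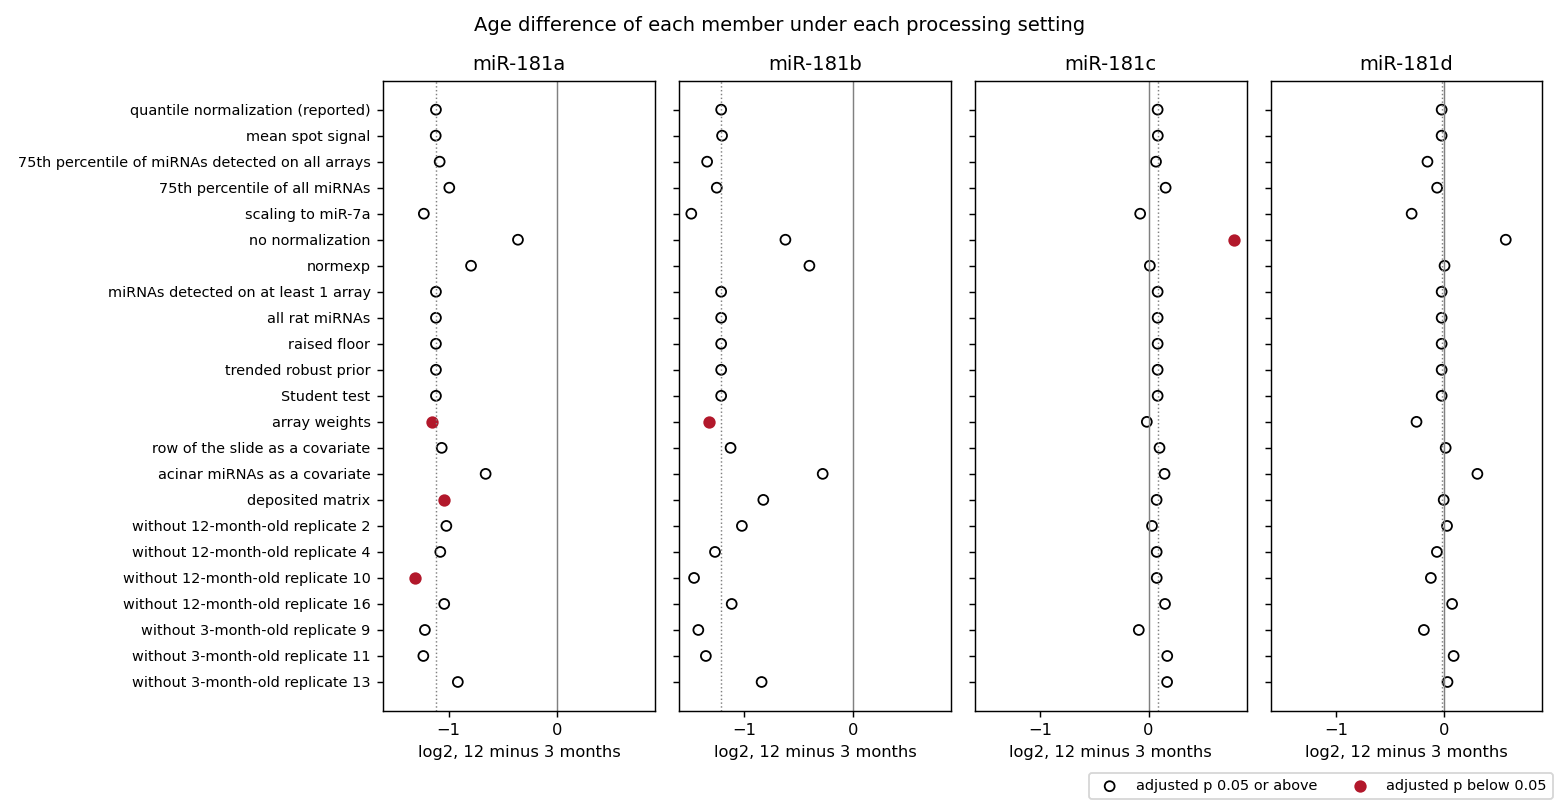
Difference between ages of each member on the log2 scale (12 minus 3 months) under the reported processing (top) and each alternative, including each rat left out in turn. Filled points have an adjusted p below 0.05, the solid line marks 0 and the dotted line the reported value. miR-181a and miR-181b stay below 0 in all 22 alternatives, whereas miR-181c is below 0 in 3 and miR-181d in 14.

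The passenger strands of the hairpins, miR-181a-1*, miR-181a-2*, miR-181b-1*, miR-181b-2*, miR-181c* and miR-181d*, could show which hairpin was used. All 6 were detected on 0 of 7 arrays, with total gene signals between -6.05 and 4.55 units, and the highest ratio of a signal to its own error was 1.47, for miR-181a-1*. The lowest signal of a detected miRNA was 1.42 to 4.92 units, depending on the array. The passenger strands were not tested, and their signals allow no statement on the chromosome 3 or chromosome 13 copies.

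The profile of miR-181a over the 7 arrays, centred on its own mean, was nearest to those of miR-19b, miR-19a and miR-92a, with root mean square differences of 0.126, 0.190 and 0.246 on the log2 scale. miR-181b was 4th, at 0.275, where the median miRNA stood at 0.734. The nearest to miR-181b were miR-181a (0.275), miR-19b (0.308) and miR-484 (0.352). Of these, miR-484 was lower at 12 months by a log2 difference of -1.56 and miR-19b by -0.96, with limma adjusted p values of 0.0608 and 0.0700. miR-181c was nearest to let-7a (0.110), miR-429 (0.116) and miR-32 (0.137), and miR-181d to let-7b (0.124), miR-27a (0.154) and let-7a (0.161). miR-181c and miR-181d stood at 0.172 from each other, and miR-181c stood at 0.664 from miR-181a, the member closest to it in sequence. Distances are descriptive, and 7 arrays of 2 ages also bring together any miRNAs that differ alike with age.

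Markers of the cell types in an islet preparation were read from the same arrays. Of the 20 marker miRNAs listed, 19 were on the array, and each was detected on at least 4 arrays. The endocrine markers miR-375, miR-7a and miR-7b were detected in all rats, as the tissue label requires, with a summed signal of 33980 to 64620 units at 12 months and 26730 to 35490 units at 3 months. These sums are not normalised and carry the general brightness of the older arrays. After normalisation the 3 log2 differences were -0.20, -0.07 and -0.27 (12 minus 3 months), and none passed an unadjusted limma p of 0.05.

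The acinar markers miR-216a, miR-216b and miR-217, which mark exocrine pancreas, moved with miR-181a and miR-181b. At an unadjusted limma p of 0.05, 34 of the 272 miRNAs tested (12.5%) were lower at 12 months, among them all 3 acinar markers. These markers had a limma adjusted p of 0.163 to 0.170 and a median log2 difference of -2.11. Their mean normalised log2 signal was 4.92, 7.37, 8.39 and 5.94 in 12-month-old replicates 2, 4, 10 and 16, and 8.22, 8.42 and 9.51 in 3-month-old replicates 9, 11 and 13. Their summed signal was 149 to 1451 units at 12 months and 887 to 1722 units at 3 months. Replicate 10, the older rat with the highest miR-181a and miR-181b, also had the highest acinar value of its age, and replicate 13 was the highest of all in the 3 measures. The order of the 7 rats by miR-181b was that by the acinar mean, apart from the tie of replicates 9 and 10. By miR-181a it differed, as replicate 9 (7.30) lay above replicates 10 and 11 (6.91 and 7.27) but had a lower acinar mean. With the acinar mean as a covariate, a fit added once the values were known, the log2 difference was -0.66 for miR-181a and -0.28 for miR-181b. The unadjusted limma p was 0.0293 for miR-181a and 0.299 for miR-181b, and the adjusted limma p 0.199 and 0.550. In the same fit miR-181c stood at 0.15 and miR-181d at 0.31. The 3 lowest acinar values belonged to older rats and the highest to a younger one, so that age and acinar signal cannot be fully told apart in these rats.

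Of the 4 leukocyte markers tested, miR-142-3p and miR-142-5p were higher at 12 months at an unadjusted limma p of 0.05, miR-142-3p by a log2 difference of 0.91 and miR-142-5p without detection on any 3-month-old array. miR-150 (0.33) and miR-223 (-0.05) missed that threshold. By this criterion 25 of all 272 miRNAs tested were higher at 12 months. The summed signal of the 4 leukocyte markers was 310 to 664 units at 12 months and 142 to 222 units at 3 months, before normalisation. miR-155 was not analysed here. Of the 5 mesenchymal markers, 4 were higher by the same criterion, with a summed signal of 2629 to 3645 units at 12 months and 737 to 1711 at 3 months. Of the 2 endothelial markers, miR-126* was higher by that criterion (0.58), while miR-126, which gives nearly all of the summed signal of 2173 to 2794 units at 12 months and 1017 to 1754 at 3 months, had a normalised log2 difference of 0.07. miR-142-5p was detected on 4 of 7 arrays, and miR-126* and the mesenchymal marker miR-145 on 6, so that they entered the test through the age in which they are higher, and their calls do not count as support. Both erythroid markers missed the threshold, and their sums overlapped, at 144 to 289 and 86.7 to 224 units. The part of the leukocyte, mesenchymal and endothelial lists in the miR-181 values was not tested.

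**Figure D4:**
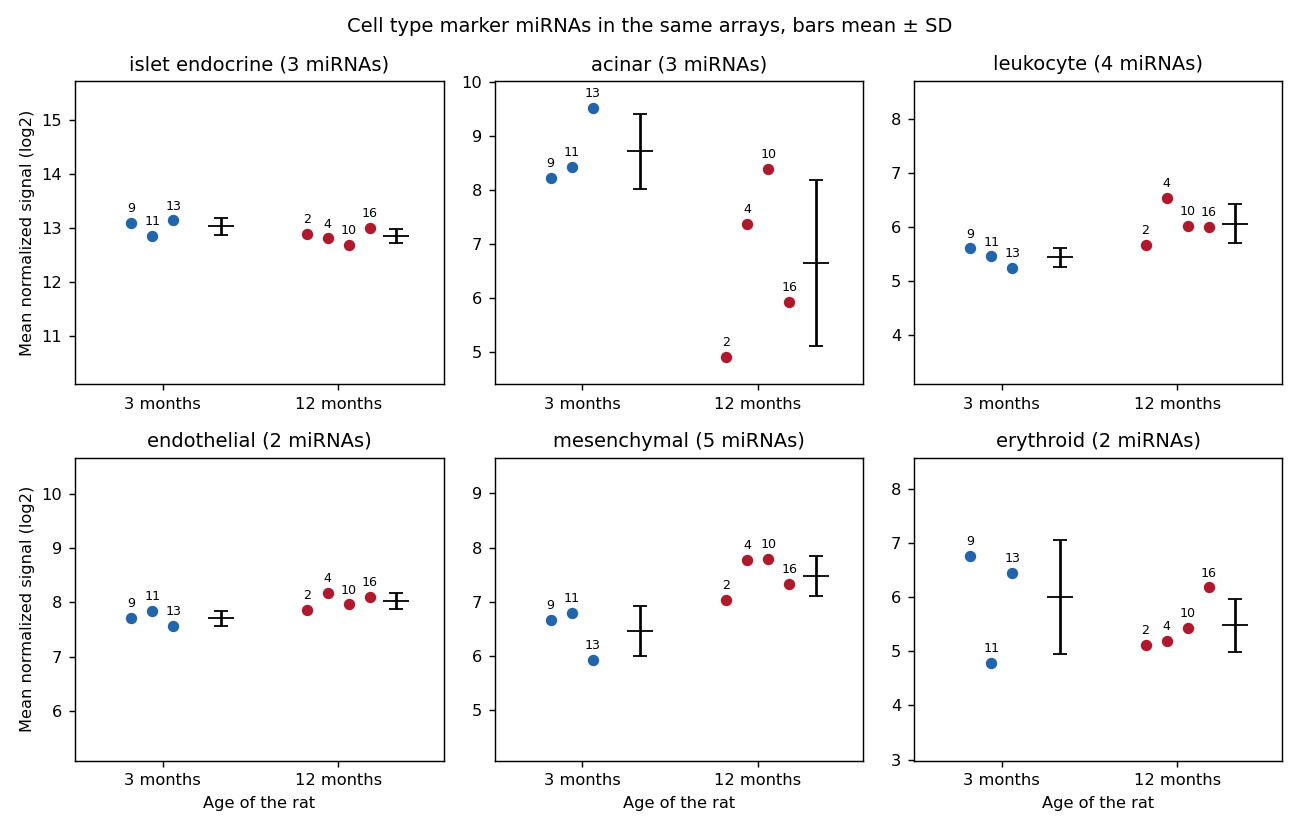
Mean quantile-normalised log2 signal of each list of cell type marker miRNAs, 1 point per rat (blue 3 months, n = 3; red 12 months, n = 4) with replicate numbers and bars for mean ± SD. Acinar markers range from 4.92 to 8.39 at 12 months and from 8.22 to 9.51 at 3 months, with replicate 10 among the younger rats. The means of the leukocyte, mesenchymal and, narrowly, endothelial lists are higher in every older rat than in any younger one. These means include miR-142-5p, miR-145 and miR-126*, which entered the test through the age in which they are higher. The separation therefore does not count as support.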

How the data were processed

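Islet RNA of 7 male Wistar rats was measured on single-colour miRNA arrays. The authors deposited scanner output made with Agilent Feature Extraction (version 10.7.3.1, from the submitters' processing notes), with background-subtracted intensities, a detection flag per miRNA and an error estimate, and a matrix of normalised log2 values, whose quantile normalisation their supplement states. Rats were grouped by the age in the labels.

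Control features were left out. The total gene signals of 677 rat miRNAs were floored at 1, put on the log2 scale and quantile normalised (R version 4.3.3, limma version 3.58.1). Testing covered the 272 miRNAs that were detected in all rats of either age, and used lmFit and eBayes (3.03 prior degrees of freedom), with Benjamini-Hochberg adjustment over all of them. Single values and pair differences were tested with exact two-sided permutation tests over 35 splits. The labels name separate rats, and p values rest on 4 and 3 of them, which limits the precision.

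The text names the 4 members, their passenger strands, for each member the 3 tested miRNAs with the smallest root mean square distance, and listed cell type markers (endocrine, acinar, leukocyte, endothelial, mesenchymal, erythroid). Members, lists and tests were chosen with earlier results of these data known. Alternatives covered signal summary, normalisation, background, filter, floor, variance model, array weights, slide row, leaving out each rat and the deposited matrix. Because the scanner files used here hold median spot intensities, normexp (offset 16) was run on those. The methods name a Student test for the whole paper, which was run as an alternative. On simulated data for this comparison with 677 miRNAs, 283 of them tested, 93.3% of changes by 2 on the log2 scale and 43.3% of those by 1 were called, and 2 of 43 calls were false. The changes were placed only in miRNAs brighter on average than miR-181b and miR-181d, with an assumed spread between rats. These rates therefore do not cover miR-181b and miR-181d. Mature sequences and positions came from RefSeq (GRCr8).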

Additional observations from a re-analysis of the deposited data

Results flagged for a closer look

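The normalised miR-181a value of 12-month-old replicate 10 (6.91) stood away from the remaining 12-month-old rats (6.16 to 6.21). Its gap to the nearest of them made up 0.936 of the range of the 4 values, above the limit of Dixon's test for 4 samples. It was the only 1 of 14 measures tested in this way that passed, and chance alone flags about 1 in 20. The same rat had the highest acinar marker signal of its age (8.39, against 4.92 to 7.37), and without it miR-181a had a log2 difference of -1.31.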

How the results depend on the processing

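The directions of miR-181a (-1.31 to -0.36) and miR-181b (-1.49 to -0.28) were the same in all 22 alternatives. The other filters, the raised floor, the other variance model and the Student test leave the log2 difference as reported. Their agreement in direction therefore adds nothing. The adjusted limma p of miR-181a passed 0.05 in 3 of them: array weights (-1.15, adjusted p 0.00251), the deposited matrix (-1.05, adjusted p 0.0496) and without 12-month-old replicate 10 (-1.31). That of miR-181b passed with array weights (-1.33, adjusted p 0.0170). The number of members with an adjusted p below 0.05 was therefore 2 with array weights, 1 with the deposited matrix and 1 with no normalisation, against 0 as reported, and 0 to 1 with each rat left out. At an unadjusted p below 0.05 it was 1 with no normalisation (miR-181c, higher) and 1 with the acinar covariate (miR-181a), against 2. With each rat left out it was 1 to 2. The shares of all miRNAs that passed in these other settings are not given here. The counts are therefore not read as particular to the family. With no normalisation, miR-181c was at 0.79 (adjusted p 0.0316), the size of the general shift of 0.79. miR-181d was at 0.57 (limma adjusted p 0.0871), below that shift. miR-181c turned negative with scaling to miR-7a (-0.0775) and array weights (-0.0160), and miR-181d positive with normexp (0.0017), the row of the slide as a covariate (0.0122), the acinar covariate (0.31) and 1 of its probes alone (0.25). With each rat left out in turn, miR-181a ranged from -1.31 to -0.92, miR-181b from -1.47 to -0.84, miR-181c from -0.0902 (without 3-month-old replicate 9) to 0.17, and miR-181d from -0.189 to 0.0857. The cause of these moves was not tested.

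The 4 differences between a genomic pair and the other kept their direction in all 15 alternatives, of which the raised floor repeats the reported values. Each was smallest with normexp, at -0.81, -0.80, -0.41 and -0.40 for a minus c, a minus d, b minus c and b minus d. miR-181b minus miR-181c reached an exact permutation p of 0.0286 at -1.41 with both 75th percentile scalings, miR-7a scaling and no normalisation, which give 1 value by construction. Its ages overlapped without 3-month-old replicate 13. miR-181a minus miR-181b turned negative with normexp (-0.39), the deposited matrix (-0.22) and without 3-month-old replicate 13 (-0.0737; 0.207 at most with another rat left out). With 1 rat left out, the exact test cannot go below 0.0667 or 0.1, so those shifts are values with no test. No paired analysis was possible because the ages share no replicate numbers. Low signals limit miR-181b and miR-181d, and the number of rats limits all members.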
